A study of Mus musculus with 8 samples.

Results

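Dbp, Tef, Hlf, Nfil3, Bhlhe40, Bhlhe41 and Ciart, which carry the rhythm of the circadian clock to its target genes, were measured in reperfused mouse hearts after DJ-1 protein or placebo. They were taken by name from a table of 19938 genes with a single symbol, with the probe set of highest mean for each gene, and all 7 were found. They were also chosen by measured values, the differences between DJ-1 and placebo hearts, in which Nfil3 had been seen to tend higher and Bhlhe41 lower. Differences of the 7 genes between the groups are therefore given as descriptions without a test, and they support nothing beyond themselves.

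The mice were all males of the strain given as CH3, 8 to 10 weeks old and 25 to 30 g in weight, and none is described as carrying an altered allele. The placebo group (4 arrays) received phosphate-buffered saline 1 hour before ligation of the left anterior descending (LAD) coronary artery, and the DJ-1 group (4 arrays) received recombinant DJ-1 protein at the same time. In both groups the artery was occluded for 45 minutes and then reperfused for 2 hours, so neither group shows uninjured heart. The clock time of surgery was not given in the sources used here, nor was the lighting schedule. Replicates are numbered 1 to 4 in each group and were taken as separate mice, which the labels do not state outright. The p-values below measure the spread between these samples.

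Values are log2 expression from the robust multi-array average (RMA), the authors' summary of the probes of each probe set, so a difference of 1 is a doubling on the array's scale. Medians of the 8 arrays lay between 5.25 and 5.35. All 7 cardiomyocyte markers were above background, here the 95th percentile of olfactory receptor genes (4.74), and so were the 7 clock output genes. On the first principal component, which held 26.3% of the variance, DJ-1 replicates 3 and 4 lay at 19.6 and 23.5 and the other arrays between -15.0 and 5.31. The sample codes of the series run through the placebo samples and then the DJ-1 samples, so an order of processing, if they reflect one, cannot be told apart from treatment.

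In the mammalian clock, CLOCK and BMAL1 (the product of Arntl) bind E-box sequences and activate the Per, Cry and Nr1d genes, whose products feed back as repressors. The same E-box activity drives output factors such as Dbp. DBP, TEF and HLF are the proline- and acid-rich basic leucine zipper (PAR bZIP) activators, which bind D-box sequences, and NFIL3 represses through the same sites. BHLHE40 and BHLHE41, also called DEC1 and DEC2, bind E-boxes and repress, and CIART (CHRONO) represses CLOCK and BMAL1 directly. In heart, these genes oscillate strongly over the day, Arntl close to the opposite phase of Dbp, while Nfil3 and Bhlhe40 also respond to cytokines, glucocorticoids or low oxygen.

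RefSeq promoter windows (build GRCm38.p6) were found for 6 of the 7 genes, with Tef having a pair of start sites. The 250 bases before each start site were searched for the E-box CACGTG, which reads the same on both strands and holds the ACGTG core of hypoxia elements. It was present in 4 of the 7 windows, those of Ciart, Bhlhe41 and both Tef starts, and in 6.02% of 32817 promoter windows of the same length. The windows that hold an E-box are shown 5′ to 3′ on the gene's strand, with the E-box in capitals, because Tef is one of the PAR bZIP genes that varied together below and Ciart and Bhlhe41 are the other genes with an E-box. They are Ciart at chr3:95882229-95882478 (minus strand), Bhlhe41 at chr6:145865421-145865670 (minus strand), and Tef at chr15:81802423-81802672 and chr15:81811164-81811413 (plus strand).
Ciart: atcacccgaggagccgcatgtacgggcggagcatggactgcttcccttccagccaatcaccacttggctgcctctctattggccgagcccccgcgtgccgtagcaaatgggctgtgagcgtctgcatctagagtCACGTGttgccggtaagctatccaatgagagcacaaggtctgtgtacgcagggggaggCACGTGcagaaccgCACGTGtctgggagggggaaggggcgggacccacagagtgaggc
Bhlhe41: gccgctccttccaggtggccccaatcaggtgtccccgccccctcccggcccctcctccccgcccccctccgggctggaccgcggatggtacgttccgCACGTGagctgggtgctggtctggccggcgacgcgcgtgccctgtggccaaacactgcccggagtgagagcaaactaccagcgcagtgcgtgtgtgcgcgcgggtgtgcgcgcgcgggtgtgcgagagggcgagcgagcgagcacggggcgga
Tef upstream start: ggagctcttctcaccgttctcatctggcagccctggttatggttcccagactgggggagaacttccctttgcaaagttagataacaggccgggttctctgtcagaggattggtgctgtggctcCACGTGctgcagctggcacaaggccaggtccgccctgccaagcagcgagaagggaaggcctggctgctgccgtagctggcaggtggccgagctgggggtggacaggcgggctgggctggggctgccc
Tef downstream start: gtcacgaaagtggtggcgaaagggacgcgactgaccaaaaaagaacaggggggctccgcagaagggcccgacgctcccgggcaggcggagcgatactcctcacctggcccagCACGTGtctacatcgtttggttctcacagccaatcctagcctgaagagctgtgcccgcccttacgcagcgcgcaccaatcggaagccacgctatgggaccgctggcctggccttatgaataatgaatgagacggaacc
Ciart held 3 E-boxes, beginning at positions -116, -58 and -44 relative to its start site. Of all windows, 20 (0.0609%) held 3 or more.

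On both strands, the related E-prime box CACGTT was in none of the 7 windows and in 3.85% of all windows. The D-box TTATGTAA and its palindromic form TTACGTAA were also in none of the 7, and in 0.817% and 0.113% of all windows. The letters AGGTCA, the core of the ROR element bound by the NR1D and ROR receptors, were searched without flanking bases. They occurred once, in the window of Nfil3, and in 14.0% of all windows, so these are not counts of full ROR elements. The windows of Dbp, Hlf and Nfil3 held no CACGTG, which says only that these letters are not in these bases.

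The activators of D-box genes had slightly lower means in DJ-1 hearts, with wide overlap. Dbp stood at 8.84, 9.79, 8.99 and 9.09 with placebo (replicates 1 to 4) and 9.63, 7.98, 8.68 and 8.95 with DJ-1 (replicates 1 to 4). The highest level was that of placebo replicate 2, followed by DJ-1 replicate 1, and the lowest that of DJ-1 replicate 2. The means were 9.18 ± 0.42 and 8.81 ± 0.68 (SD, n = 4 each), a difference of -0.37 (SE 0.30), DJ-1 minus placebo. Tef, the closely related activator, was at 7.50, 8.13, 7.35 and 7.54 with placebo and 7.98, 7.21, 7.37 and 7.42 with DJ-1, with a difference of -0.13 (SE 0.19). Its highest arrays were again placebo replicate 2 and DJ-1 replicate 1. Hlf, the third PAR bZIP gene, was at 6.91, 7.66, 6.69 and 7.02 with placebo and 7.19, 6.59, 6.81 and 6.84 with DJ-1, a difference of -0.21 (SE 0.19). The differences depended on single hearts: without placebo replicate 2 that of Tef was 0.03 and that of Hlf -0.02, and without DJ-1 replicate 2 that of Dbp was -0.09.

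Nfil3, the repressor that competes with these activators, had the opposite tendency. Its levels were 6.52, 6.31, 6.40 and 5.88 with placebo (replicates 1 to 4) and 6.55, 6.88, 7.26 and 6.53 with DJ-1 (replicates 1 to 4). The groups did not overlap, but the gap between the highest placebo array and the lowest DJ-1 array was 0.011. Placebo replicate 4 was lowest and DJ-1 replicate 3 highest, and both lay well apart from the others of their group. The means were 6.28 ± 0.28 and 6.81 ± 0.34 (SD, n = 4 each), a difference of 0.53 (SE 0.18), which was 0.37 with DJ-1 replicate 3 left out and 0.39 with placebo replicate 4 left out. Nfil3 was the single one of the 7 genes without overlap between the groups. Over all genes tested the groups did not overlap for 3.22%, with the DJ-1 group higher for 1.54% and lower for 1.68%; nothing is read from the count for Nfil3, since the tendency was used to choose it.

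The E-box repressors were lower in mean. Bhlhe41 was at 7.24, 7.54, 6.99 and 7.76 with placebo and 7.19, 7.01, 7.09 and 6.87 with DJ-1. Placebo replicates 1, 2 and 4 lay above all DJ-1 arrays, and placebo replicate 3 lay among them. The difference was -0.34 (SE 0.15), and -0.22 without placebo replicate 4. Bhlhe40 was at 8.53, 8.32, 8.31 and 8.74 with placebo and 8.27, 8.27, 8.41 and 8.44 with DJ-1, a difference of -0.13 (SE 0.11) that shrank to -0.04 without placebo replicate 4, its highest array. It was the steadiest of the 7 genes, spanning 0.48 over the 8 arrays.

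Ciart, the repressor of CLOCK and BMAL1, varied widely and was measured by 2 probe sets. By the probe set of higher mean (10373452) its levels were 7.52, 8.26, 7.33 and 7.98 with placebo and 8.47, 6.39, 8.10 and 7.35 with DJ-1. The range over all 8 arrays was 2.08, or 4.24-fold, and both its highest and its lowest array belonged to the DJ-1 group. The difference of -0.19 (SE 0.38) became 0.20 without DJ-1 replicate 2. The second probe set, 10500272, had a difference of -0.10 and gave 6.72, 7.33, 6.45 and 6.63 with placebo and 7.41, 5.74, 6.92 and 6.64 with DJ-1. Its range was 1.67 (3.19-fold), below the 1.80 of Dbp. The same array was highest and the same array lowest by both probe sets, whose deviations from the group mean had r = 0.95. Ciart lies on mouse chromosome 3, as do all 20 of the genes on probe sets numbered next to 10500272. Of 20 such genes around 10373452, 19 lie on chromosome 10, so the target of that probe set is uncertain. Values for Ciart are those of 10373452 unless 10500272 is named.

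**Figure D1:**
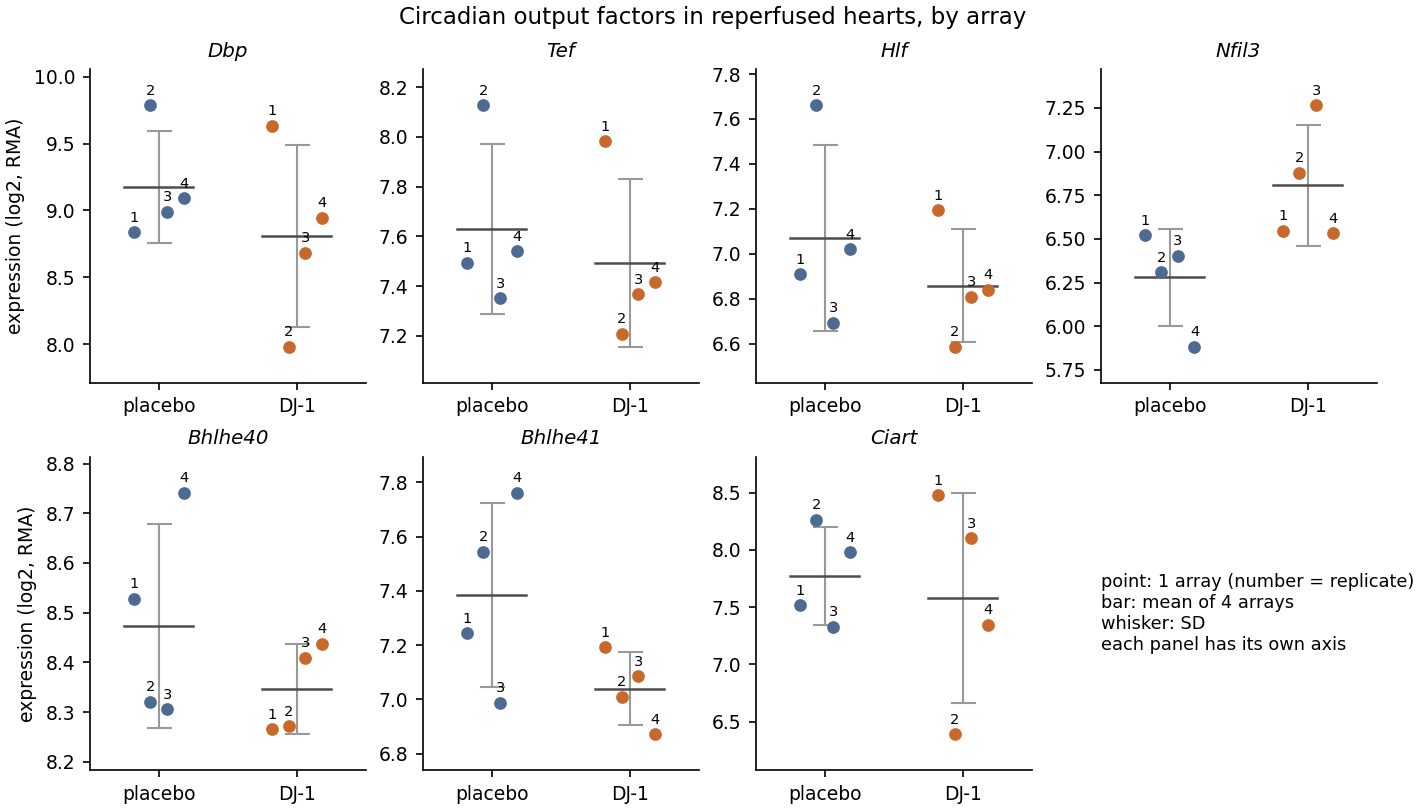
Expression (log2, RMA; y axis, a separate scale for each panel) of the 7 clock output genes in placebo (blue) and DJ-1 (orange) hearts. Each point is 1 array with its replicate number, and bars and whiskers are the mean and SD of 4 arrays. The groups overlap for 6 of the 7 genes, and placebo replicate 2 and DJ-1 replicate 1 are the highest of their groups for Dbp, Tef, Hlf and Ciart.

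Across the table, limma called 0 of 19938 genes (0.0%) between the groups at an adjusted p under 0.05, and 1194 (5.99%) had an unadjusted p under 0.05. Among the 7 output genes the mean was lower with DJ-1 for 6 and higher for 1, and they had a median difference of -0.19 against 0.01 over all genes; 47.5% of all genes had a lower mean. Hearts differed within the groups more than they did for most genes. The SD within groups was 0.72 for Ciart (0.57 by probe set 10500272, level with Dbp), 0.57 for Dbp, 0.34 for Hlf and Tef, 0.31 for Nfil3, 0.26 for Bhlhe41 and 0.16 for Bhlhe40. The median over the 13693 genes above background was 0.15. Ciart exceeded 99.6% of these genes (99.1% by 10500272), Dbp 99.1%, Hlf, Tef and Nfil3 96.5%, 96.4% and 95.1%, Bhlhe41 89.5%, and Bhlhe40 53.6%.

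Because the variation within groups was not used to choose the genes, each array's deviation from its group mean was compared between genes. The PAR bZIP genes varied together from heart to heart. Tef and Hlf had Pearson's r = 0.96 and Spearman's rho = 0.95 over the 8 arrays (exact permutation of arrays within groups, two-sided, p = 0.00174, the smallest that the design gives, for each; adjusted p = 0.0365 over 21 pairs of output genes). For Dbp and Tef r was 0.91 (exact permutation p = 0.00868, adjusted p = 0.0456) and rho 0.95 (exact permutation p = 0.00347, adjusted p = 0.0365). For Dbp and Hlf r was 0.85 (exact permutation p = 0.00868, adjusted p = 0.0456) and rho 0.88 (exact permutation p = 0.00868, adjusted p = 0.0608). Of the pairs of Ciart with these genes, that with Hlf passed by r and none passed by rho. With Hlf r was 0.74 (exact permutation p = 0.00694, adjusted p = 0.0456) and rho 0.81 (exact permutation p = 0.0122, adjusted p = 0.0638). With Dbp its r was 0.85 and with Tef 0.76, neither of which passed (adjusted exact permutation p = 0.115 for each by r and 0.128 by rho), and that with Dbp was 0.51 without DJ-1 replicates 1 and 2. With probe set 10500272 in its place the r was 0.92 with Dbp, 0.85 with Tef and 0.82 with Hlf, of which the last 2 passed (adjusted exact permutation p = 0.0668, 0.0437 and 0.0437).

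Whether these relations passed depended on the scaling, and the r of Dbp with Tef and Hlf depended on which hearts were left out. With each array centred on its median, Tef with Hlf alone still passed, and the adjusted exact permutation p was 0.0608 for Dbp with Tef and 0.0729 for Hlf with Ciart. Without the 2 arrays farthest from the median of the first gene, r was 0.98 for Tef with Hlf (without placebo replicate 2 and DJ-1 replicate 1), 0.93 for Dbp with Tef and 0.91 for Dbp with Hlf (both without DJ-1 replicates 1 and 2), and 0.76 for Hlf with Ciart. None of these values was lower than that over all arrays. Without placebo replicate 2 and DJ-1 replicate 1, the hearts highest for all 4 genes in their groups, r was 0.74 for Dbp with Tef and 0.66 for Dbp with Hlf, over 6 arrays. The deviations of those 2 hearts also correlated at 0.411 across the 13693 genes above background, clock genes included. The value was the highest of any placebo array with a DJ-1 array, and is a description over genes that are not independent. The part of this wider likeness in the clock relations was not tested. As a measure of the background, Hlf ranked 5 among 13058 genes by likeness to Tef, and Tef ranked 18 and Hlf 63 by likeness to Dbp.

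No relation of Nfil3 with these genes passed. Its r was -0.40 with Dbp, -0.32 with Tef, -0.27 with Hlf and -0.15 with Ciart (exact permutation p = 0.41, 0.438, 0.509 and 0.799). Bhlhe40 had r between -0.33 (Nfil3) and 0.46 (Bhlhe41) against the other 6 genes, and Bhlhe41 had 0.58 with Hlf and 0.54 with Ciart (exact permutation p = 0.252 and 0.0712). By probe set 10500272, Ciart had r of -0.11 with Nfil3 and 0.38 with Bhlhe41 (exact permutation p = 0.859 and 0.274). None of the 11 pairs that hold Nfil3 or Bhlhe40 passed. Some of these values turned with the arrays included: Bhlhe40 had r of -0.29 with Tef and -0.18 with Hlf over all arrays, but 0.88 and 0.94 without placebo replicate 2 and DJ-1 replicate 1. With 8 arrays the test resolves only strong relations, so these values do not show that the genes vary independently.

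**Figure D2:**
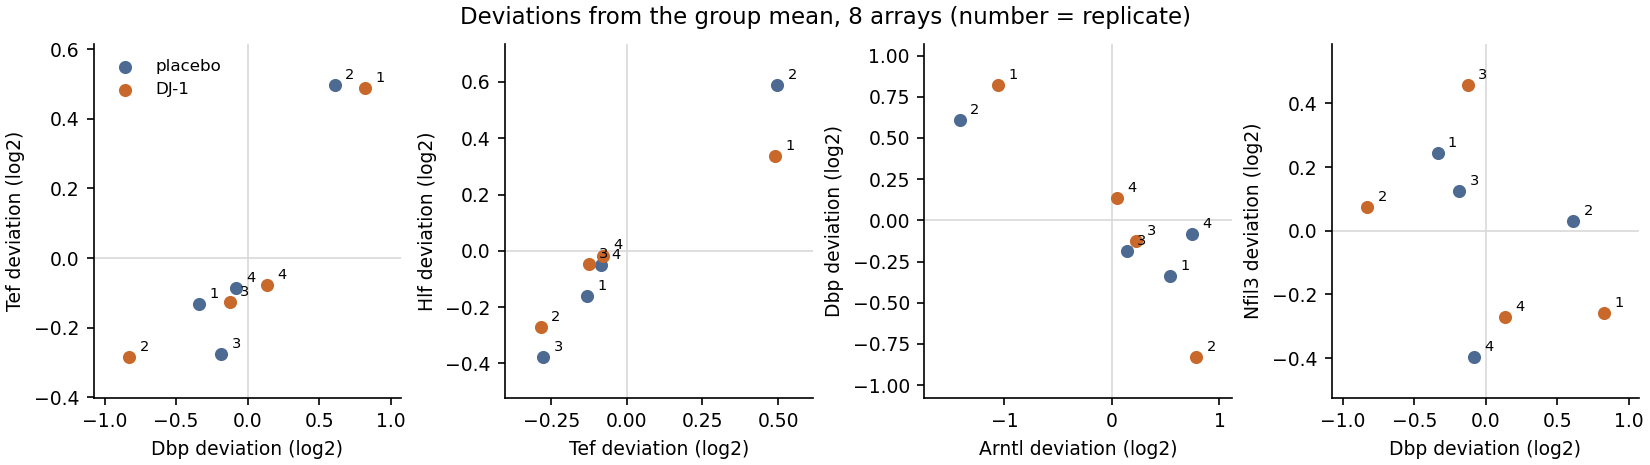
Deviation of each array from its group mean (log2, both axes) for 4 gene pairs, with placebo arrays in blue, DJ-1 arrays in orange and replicate numbers beside the points. Tef and Hlf follow one line (r = 0.96), Dbp falls as Arntl rises (r = -0.89, with placebo replicate 2 and DJ-1 replicate 1 far to the left), and Nfil3 shows a loose scatter against Dbp (r = -0.40).

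The core clock showed the same hearts apart. Arntl was at 6.67, 4.72, 6.27 and 6.88 with placebo (replicates 1 to 4) and 5.18, 7.02, 6.46 and 6.28 with DJ-1 (replicates 1 to 4). Placebo replicate 2 and DJ-1 replicate 1 were the lowest, and DJ-1 replicate 2, where Dbp and Ciart were lowest, was the highest. The deviations of Arntl and Dbp had r = -0.89 and rho = -0.81 (exact permutation p = 0.0122 and 0.0347; adjusted p = 0.0638 and 0.146 over 21 pairs of an output gene with Arntl, Nr1d1 or Per3), which did not pass. Without placebo replicate 2 and DJ-1 replicate 1 the r of Arntl was -0.72 with Dbp, -0.16 with Tef and -0.02 with Hlf, against -0.92 for Tef and -0.88 for Hlf over all arrays, so the relations with Tef and Hlf rested on those hearts.

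Per3, a clock repressor gene of the same phase as Dbp in textbook data, was at 6.35, 7.03, 6.40 and 6.77 with placebo and 6.86, 5.92, 6.24 and 6.08 with DJ-1. Its deviations correlated with those of Tef (r = 0.92, rho = 0.88), Dbp (r = 0.89, rho = 0.93) and Hlf (r = 0.86, rho = 0.81). All 3 passed by r (exact permutation p = 0.00694, adjusted p = 0.0486, for each) and none by rho (adjusted exact permutation p = 0.109 for each). With each array left out in turn these r stayed between 0.79 and 0.96. Under quantile normalization, median centring or cyclic loess none of the 3 passed (adjusted exact permutation p = 0.0547 to 0.0625), with r from 0.85 to 0.93. Without placebo replicate 2 and DJ-1 replicate 1 they were 0.64 for Tef, 0.57 for Dbp and 0.72 for Hlf.

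Nr1d1, the gene of the repressor REV-ERB alpha, was at 10.68, 9.76, 10.40 and 10.80 with placebo and 10.18, 10.34, 10.48 and 10.61 with DJ-1. In textbook data Nr1d1 peaks near Dbp, as Per3 does. Its lowest arrays were those where Dbp was highest. Over all arrays its deviations had r = -0.52 with Dbp, -0.70 with Tef and -0.69 with Hlf (exact permutation p = 0.135, 0.0868 and 0.16). These signs are opposite to those of Per3. Nr1d2, the other Nr1d gene, had the sign of Per3, with r of 0.79 with Dbp, 0.92 with Tef and 0.80 with Hlf, which were not tested. Without placebo replicate 2 and DJ-1 replicate 1 the values of Nr1d1 were 0.56, 0.95 and 0.97, opposite in sign to those over all arrays (adjusted exact permutation p = 0.404, 0.194 and 0.194). Its r with Bhlhe40 was 0.80 and rho 0.79 (exact permutation p = 0.0677 and 0.0486, adjusted p = 0.157 and 0.146).

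**Figure D3:**
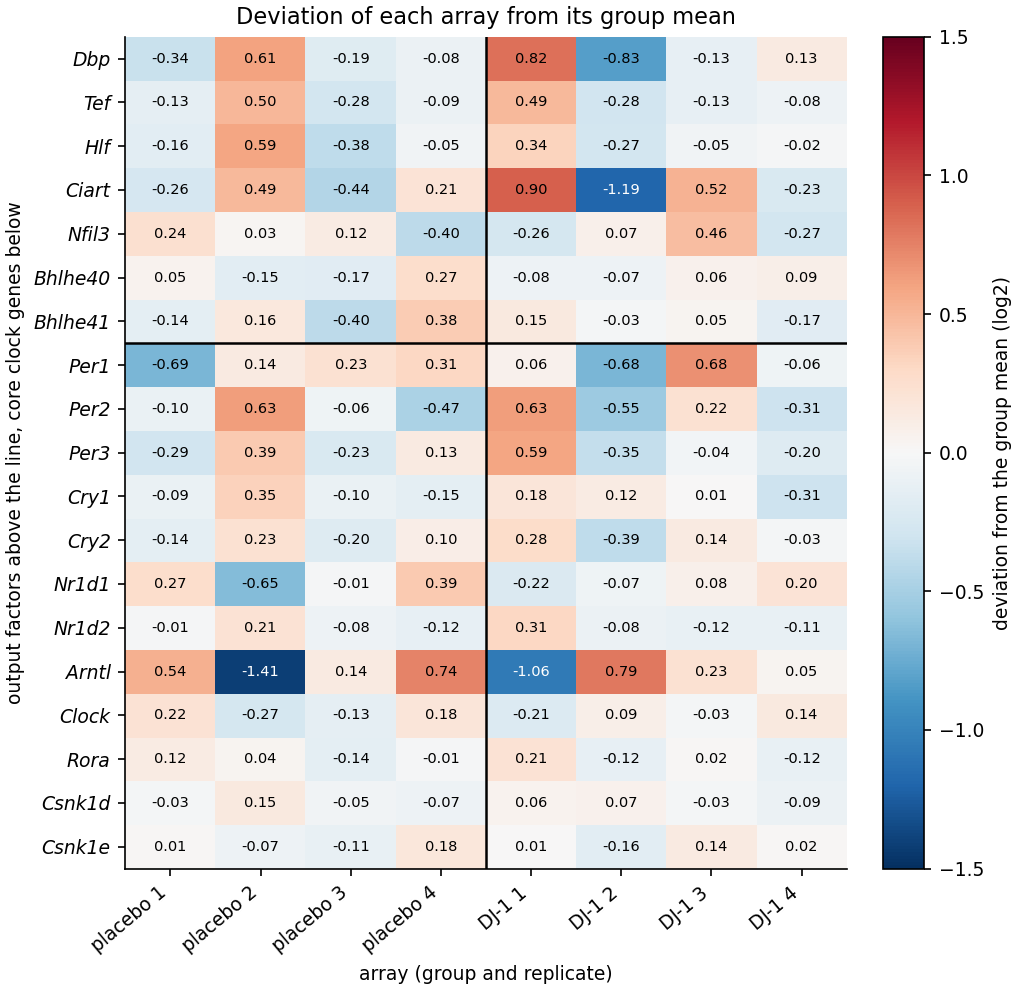
Deviation of each array (columns) from its group mean, log2, for the 7 output genes (above the line) and 12 core clock genes (below); red is above and blue below the group mean. In placebo replicate 2 and DJ-1 replicate 1, Dbp, Tef, Hlf, Ciart, Per2 and Per3 are above and Arntl (-1.41 and -1.06) far below the mean, while Nfil3 is at 0.03 in placebo replicate 2 and -0.26 in DJ-1 replicate 1.

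Between the treatment groups the core clock genes did not pass. Of the 12 core clock genes reported, each measured under a single symbol, 0 passed in the limma fit, with 0 at an unadjusted p under 0.05. The median difference was 0.01, the same as over all genes, with 7 genes higher and 5 lower in mean. The largest difference was that of Per3, -0.36 (SE 0.21, adjusted p = 0.824 in limma). The other clock repressors differed by 0.15 for Cry1, 0.09 for Per2, 0.06 for Per1 and 0.003 for Cry2. Among the activators and nuclear receptors the differences were 0.10 for Arntl (SE 0.46), 0.02 for Clock, -0.08 for Nr1d2, -0.02 for Rora and -0.01 for Nr1d1. The kinase genes Csnk1d and Csnk1e differed by 0.13 and -0.04.

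Genes downstream of D-boxes and the clock did not pass either. Of 10 listed, 8 were measured (not Por or Cdkn1a), 0 of 8 passed in limma with 0 at an unadjusted p under 0.05, and the median difference was -0.01. Klf15, a metabolic regulator of cardiac muscle, differed by 0.17, Kcnip2, which encodes a potassium channel subunit, by -0.12, and Ppara, the fatty acid sensor gene, by -0.11 (adjusted p = 0.826, 0.871 and 0.912 in limma).

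Inputs that act on Nfil3 and Bhlhe40 were also compared. Of 9 cytokine-induced early genes, 0 passed in limma and 0 had an unadjusted p under 0.05, although the mean of all 9 was higher with DJ-1 (median difference 0.49), as it was for the neutrophil markers given with Nfil3 in the next paragraph. The cytokine gene Osm had a difference of 0.57 (SE 0.32), Socs3, which encodes an inhibitor of cytokine signalling, 0.53 (SE 0.30), and the neutrophil chemokine gene Cxcl2 0.57 (SE 0.35). The limma adjusted p was 0.824, 0.824 and 0.830. In DJ-1 replicate 3, highest for Nfil3, Osm (4.76), Socs3 (8.10) and Cxcl2 (8.25) lay below their placebo means of 4.95, 8.33 and 8.62. Placebo replicate 4, lowest for Nfil3, was also lowest for Osm (4.41) and Cxcl2 (8.19) but not for Socs3 (8.06). The part of cytokine-induced genes in the Nfil3 values was not tested. Of 6 glucocorticoid-induced genes 0 passed and 1 had an unadjusted p under 0.05, Zbtb16, a zinc finger repressor gene. It was at 9.53, 9.12, 8.68 and 7.73 with placebo and 9.78, 9.34, 9.51 and 9.66 with DJ-1, a difference of 0.81 (SE 0.30, adjusted p = 0.824 in limma). Fkbp5, a co-chaperone of the glucocorticoid receptor, differed by 0.48 (SE 0.23) and Tsc22d3 by 0.11 (adjusted p = 0.824 and 0.900 in limma). Placebo replicate 4 was the lowest of the 8 arrays for Nfil3, Zbtb16 (7.73), Fkbp5 (6.11) and Tsc22d3 (8.06). It was not the lowest for the rest of the list, Per1 (8.615), Sgk1 (8.25) and Klf9 (9.30). DJ-1 replicate 3, highest for Nfil3, had Zbtb16 at 9.51 and Fkbp5 at 7.02, neither its highest array. For Per1 (9.04), Sgk1 (8.56) and Klf9 (9.34) it was the highest of the 8 arrays. The part of glucocorticoid-induced genes in the Nfil3 values was not tested. Of 8 hypoxia-induced genes 0 passed, 0 had an unadjusted p under 0.05 and the median difference was -0.04; Ddit4 differed by 0.36, Egln3 by -0.19 and Ankrd37 by -0.12.

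White blood cells also express Nfil3, and in bulk tissue fewer cells of a type and less RNA per cell cannot be told apart. The mean of 10 neutrophil markers, 9 of them above background, was 6.08, 7.08, 5.59 and 4.72 with placebo and 7.11, 7.38, 6.27 and 5.76 with DJ-1, with all 10 higher in mean in DJ-1 hearts. Placebo replicate 4 had the lowest mean and also the lowest Nfil3, but DJ-1 replicate 3, highest for Nfil3, had a lower neutrophil mean than placebo replicate 2. The part of neutrophils in the Nfil3 values was not tested. Monocyte and macrophage markers, 5 of 6 above background, ranged from 7.08 to 7.38 in placebo and 6.96 to 7.37 in DJ-1 hearts, and lymphocyte markers, 4 of 5 above background, from 4.84 to 5.16 and 4.72 to 5.06. Among the heart's own cells, the marker means of cardiomyocytes ranged from 13.12 to 13.26 in placebo and 13.07 to 13.23 in DJ-1 hearts, those of endothelium from 9.57 to 9.76 in placebo and 9.38 to 9.57 in DJ-1 hearts, those of fibroblasts from 9.43 to 9.59 and 9.21 to 9.41, and those of smooth muscle and pericytes from 9.13 to 9.31 and 9.08 to 9.22. The 2 erythroid genes measured of 3 listed had means of 7.02 to 7.93 and 7.76 to 8.33. The fibroblast means did not overlap between the groups, with the highest DJ-1 mean at 9.415 and the lowest placebo mean at 9.433. Taken singly, the groups did not overlap for 1 of 5 fibroblast markers and 1 of 5 smooth muscle and pericyte markers, both lower with DJ-1. The same held for 1 of the 2 erythroid genes, higher with DJ-1, and for no marker of the other cell types. Over all genes tested the groups did not overlap for 3.22%, and nothing is read from these counts. A relation of the marker means to Nfil3 was not tested.

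**Figure D4:**
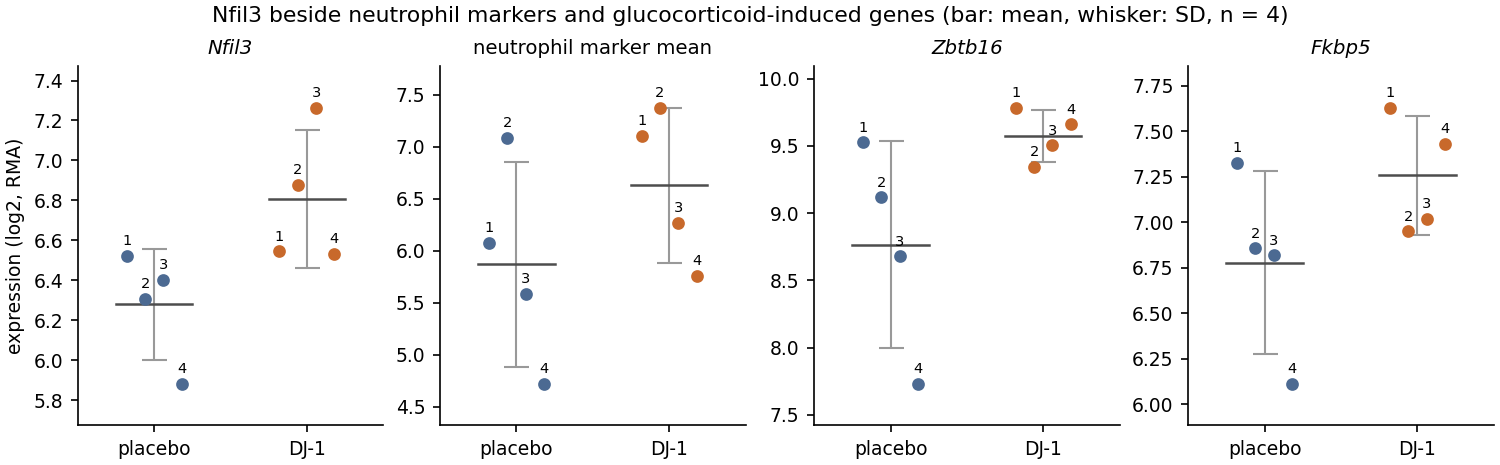
Expression (log2, RMA; y axis, a separate scale for each panel) of Nfil3, the mean of 10 neutrophil markers, Zbtb16 and Fkbp5 by array, with bars and whiskers for the mean and SD of 4 arrays. Placebo replicate 4 is lowest in all 4 panels, while among them DJ-1 replicate 3 is highest for Nfil3 alone. Of the glucocorticoid-induced genes not shown, Tsc22d3 is also lowest in placebo replicate 4, while Per1, Sgk1 and Klf9 are not and are highest in DJ-1 replicate 3.

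The genes most like each output gene within groups were taken from 13058 named genes above background by Pearson's r over the 8 arrays. They are the highest of many and are a description only. For Dbp they were Mnt (0.96), Bcar3 (0.95) and C1qtnf2 (0.94), for Tef Pabpc1 (0.99), Dhx40 (0.99) and Nr2c2 (0.98), and for Hlf Pabpc1 (0.98), Nr2c2 (0.98) and Trip10 (0.97). Tef and Hlf thus shared Pabpc1 and Nr2c2. For Ciart they depended on the probe set: by 10373452, whose target is uncertain, Cry2 (0.98), the cryptochrome repressor of the core clock, Pdxk (0.98) and Zscan21 (0.98), and by 10500272 Itgad (0.97), Mnt (0.97) and Usp2 (0.95), with Cry2 ranked 4 (0.94). For Nfil3 they were Mcidas (0.98), Trim50 (0.98) and Fgf6 (0.95), for Bhlhe40 Arhgef11, Erbb3 and Arid1b (each 0.98), and for Bhlhe41 Miga1 (1.00), Fn3krp (0.96) and Slc12a4 (0.95). No output gene was among the 3 closest genes of another.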

How the data were processed

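RNA from 4 placebo and 4 DJ-1 samples of reperfused myocardium, taken as separate mice (RNA integrity number above 7, 100 ng), was measured on Affymetrix whole-transcript arrays. The deposited table holds log2 expression of 35556 probe sets, made by the authors with RMA, per the submitters' processing notes; no version or annotation build was given in the sources used here. The platform annotation gave a single symbol to 21789 probe sets, several to 1621 and none to 12146; the probe set of highest mean was used per gene. No value was imputed and no array dropped.

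All 19938 genes were fitted with limma 3.58.1 in R 4.3.3 (two-sided, Benjamini-Hochberg, no covariate), checked on simulated data. SE are those of this fit. Correlations used deviations from group means, with all 576 arrangements of arrays within groups, in Python 3.11.15. Arrays give no read depth; their number limits the precision. Genes named are the 7 members, all core clock genes measured, the 3 genes of smallest p in each other list of responding genes, and the 3 most alike genes per member. Cell type marker lists are given by their mean levels. The genes most like the second Ciart probe set, and Sgk1 and Klf9, were added after seeing the data. The members and lists were chosen with earlier results of these data known. Arntl is the array's name for Bmal1. Alternatives covered scaling, filters, variance models, probe sets, a replicate block and left-out arrays.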

Additional observations from a re-analysis of the deposited data

Results flagged for a closer look

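A pair of core clock values lay far from the other 3 arrays of their group, by the ratio of the gap next to the extreme array to the group's whole range. Cry1 in placebo replicate 2, the highest of its group, had a ratio of 0.89, and Nr1d2 in DJ-1 replicate 1, also the highest of its group, had 0.928, both past Dixon's 95% critical value for 4 samples. In all, 38 groups (7 output genes and 12 core clock genes, each in placebo and DJ-1 hearts) were examined. Of the 38, 2 were past that value, near the 5% that chance gives, so nothing more is read from them. No output gene passed that value; the highest ratios among them were 0.755 for Tef in placebo replicate 2 and 0.733 for Tef in DJ-1 replicate 1.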

How the results depend on the processing

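The 7 differences were recomputed under 18 alternatives each. Of these 126 values, 41 come from 6 alternatives (filters, variance models, the block, all probe sets) that leave a difference as it is by construction. Of the other 85, 83 kept their sign. The exceptions were Tef without placebo replicate 2 (0.03) and Ciart without DJ-1 replicate 2 (0.20). Of the 85, 0 moved by as much as the SD within groups. With 1 array left out a difference cannot move that far, so this count says nothing about stability. Under the 3 scalings Nfil3 differed by 0.48 to 0.55 and Bhlhe41 by -0.39 to -0.31. The count of genes past an adjusted p of 0.05 in limma was 0 under every alternative other than without DJ-1 replicate 3, where it was 1 (Pramel27, adjusted p = 0.044, named after its value was seen), so it ran from 0 to 1 with each array left out; without moderated variances it was 0, with 1118 at an unadjusted p under 0.05. No core clock, output, glucocorticoid, hypoxia or cytokine gene passed under any of them. With the replicate number as a block, 0 genes passed and 1302 had an unadjusted p under 0.05. Same-numbered arrays had correlations of deviations of -0.048, 0.229, 0.243 and 0.0137, and placebo replicate 2 was closest to DJ-1 replicate 1 (0.411), so the numbers were not taken to pair the samples.

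The count of correlated pairs of output genes was 4 of 21 as deposited, 4 with quantile normalization or cyclic loess and 1, Tef with Hlf, with each array centred on its median. With the second Ciart probe set it was 5. With each array left out it ran from 0 to 3 (0 without placebo replicate 2 or 4 or DJ-1 replicate 1, 2 or 4), while r of Tef with Hlf stayed between 0.948 and 0.995. It was 0 without DJ-1 replicates 3 and 4 and 0 without placebo replicate 2 and DJ-1 replicate 1. The count of pairs with Arntl, Nr1d1 or Per3 was 3 of 21 as deposited and 0 with quantile normalization, with median centring, with cyclic loess, with each array left out, and without either pair of arrays. Fewer arrays also raise the smallest exact permutation p, to 0.00694 without 1 array and to 0.0208 or 0.0278 without 2, so a call lost there says nothing about stability, and the cause of the other changes was not tested. The alternatives for pairs with Arntl, Nr1d1 and Per3, the one without placebo replicate 2 and DJ-1 replicate 1, and the second Ciart probe set were chosen after seeing the data.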
